A study of Sus scrofa with 18 samples.

Results

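Pig longitudinal muscle on day 15 of pregnancy carried 839 H3K27ac regions that overlapped no H3K27ac peak of circular muscle. A region was a peak of the GD15M_LM H3K27ac list on chromosomes 1 to 18 or X with a fold enrichment of at least 4. It shared not a single base with any H3K27ac peak of GD15M_CM or CD15M_CM, whatever the strength of the circular muscle peak. These 839 regions, called LM-only here, were 3.4% of the 24709 GD15M_LM peaks of that strength on these chromosomes. The members were selected on the H3K27ac fold enrichment and overlap themselves, so their enrichment and their absence from circular muscle are given as a description. H3K4me3 and position are the measures that the choice did not use.

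The samples were myometrium of Yorkshire gilts taken from the mesometrial side (M) of the uterus, with no agent given and no genetic change. GD15M_LM and GD15M_CM were the outer longitudinal (LM) and inner circular (CM) muscle layers on day 15 of pregnancy after natural mating, and CD15M_CM was circular muscle on day 15 of the estrous cycle. H3K27ac, H3K4me3 and IgG were profiled by CUT&Tag, in which a transposase tethered to an antibody cuts DNA beside the marked nucleosome, in 2 gilts per group. The peak lists used here were called on the merged reads of the 2 gilts, with 1 list per mark and tissue, so in these lists no value has a replicate error and no difference was tested across animals. The layers were paired in the study's RNA comparison, and whether the CUT&Tag libraries of GD15M_LM and GD15M_CM also came from the same gilts is not given in the sources used here. Longitudinal muscle of cyclic gilts was not analysed here, so a property of the layer and a property of the layer in pregnancy cannot be told apart. A muscle layer is a mixture of cells, and a peak present in more cells and a peak with more of the mark per cell cannot be told apart.

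H3K27ac is an acetyl mark found at active promoters and enhancers, and H3K4me3 is a methyl mark concentrated at active promoters. A region with H3K27ac and without H3K4me3, away from a gene end, has the usual chromatin of a distal enhancer. The longitudinal layer of the myometrium runs along the uterine horn and shortens it, whereas the circular layer narrows its lumen. Both are smooth muscle, driven by calcium and myosin phosphorylation, and they differ in innervation and in their response to transmitters.

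The 6 lists covered between 47.7 and 75.3 Mb, and the GD15M_LM H3K27ac list was the shortest of the H3K27ac lists, with 56172 peaks on chromosomes 1 to 18 and X against 78855 in GD15M_CM and 80992 in CD15M_CM. The lists give no read counts, so depth cannot be read from them, and the 95% Wilson intervals below cover counting error only. Each of the 10 smooth muscle marker genes had H3K27ac in its body or within 10 kb and H3K4me3 within 3 kb of a gene end in every tissue. Such peaks are common, since 14247 of 19484 protein-coding genes had gene-end H3K4me3 in GD15M_LM or GD15M_CM. The presence of peaks alone therefore does not establish cell identity. Marker genes of other cells were also marked in GD15M_LM, with H3K4me3 at 7 of 9 mesothelial, 5 of 6 endothelial, 5 of 5 T cell, 4 of 6 macrophage and B cell, 4 of 5 uterine epithelial, 3 of 5 nerve and glia and 3 of 5 interstitial cell genes. Of these genes, NCAM1, an adhesion molecule of nerve and glia, was the single one with an LM-only region, of fold enrichment 4.00.

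The LM-only regions were weak and short. Their median fold enrichment was 4.34 (interquartile range 4.14 to 4.64, highest 7.04) against 5.26 for the 20794 GD15M_LM peaks found in all 3 tissues, and their median length was 353 bp against 1232 bp. Of the 839 regions, 546 (65.1%) had a fold enrichment under 4.5, 87 (10.4%) reached 5 and 8 reached 6. The share of GD15M_LM peaks without a circular muscle peak fell from 16.9% (16.2 to 17.6%) of those under 3 to 7.82% (7.21 to 8.47%) between 4 and 4.5, 1.32% between 5 and 6 and 0.029% (1 of 3412) at 7 or more. The same rule applied to the other lists gave 3577 GD15M_CM-only regions (14.2% of 25160) and 2714 CD15M_CM-only regions (9.98% of 27200). At the threshold, the members just inside had a fold enrichment of 4.00 and lay on chromosomes X and 8, and peaks just outside had 4.00 after rounding as well. Fold enrichment also came in steps, since 50 members had the same value of 4.14 and 450 (53.6%) had a value held by at least 5 members.

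**Figure D1:**
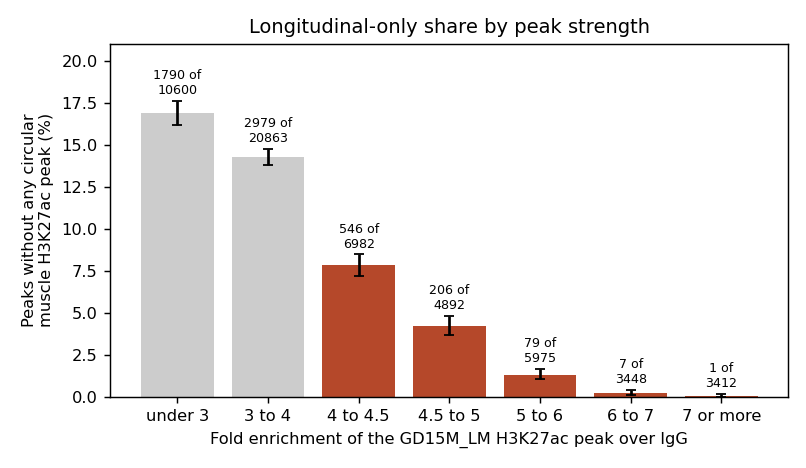
Share of GD15M_LM H3K27ac peaks (y axis, %) that overlap no H3K27ac peak of GD15M_CM or CD15M_CM, by deposited fold enrichment (x axis, labelled as over IgG). Red bars are the LM-only regions described here and grey bars lie below the threshold, whiskers are 95% Wilson intervals, and the share falls from 16.9% under 3 to 0.029% at 7 or more.

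Many LM-only regions lay close to circular muscle H3K27ac. The nearest circular muscle peak was under 1 kb away for 313 regions (37.3%) and 10 kb or more away for 220 (26.2%), with a median of 2107 bp. Of the 313, 197 (62.9%) also had another GD15M_LM H3K27ac peak under 1 kb away. With peaks less than 1 kb apart joined in every H3K27ac list, 621 regions were LM-only. The nearer of the circular muscle lists was CD15M_CM for 599 regions (71.4%) and GD15M_CM for 236 (28.1%), and the median distance was 2607 bp to CD15M_CM and 6708 bp to GD15M_CM. The most isolated region lay in MORC1 on chromosome 13, 454890 bp from the nearest circular muscle peak, followed by a region in FHIT at 420118 bp and one in CA10 at 414623 bp. These had fold enrichments of 4.14, 4.44 and 4.14, and none overlapped H3K4me3 in any tissue.

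Seen from the genes, LM-only regions were mostly distal. Of the 839, 465 (55.4%, interval 52.0 to 58.8%) lay in a gene body, 229 (27.3%, 24.4 to 30.4%) outside genes and 145 (17.3%, 14.9 to 20%) within 3 kb of either end of a RefSeq gene. Among all GD15M_LM peaks of fold enrichment at least 4, 36.1% were in gene bodies, 13.4% outside genes and 50.5% near a gene end. The 7956 shared GD15M_LM peaks in the lower range of the members' strength (fold enrichment 4 to 4.64) were near a gene end in 38.4% of cases (37.3 to 39.4%), in gene bodies in 45.3% and outside genes in 16.4%, which lies between the LM-only regions and all shared peaks. These peaks were chosen by fold enrichment and not matched on length. GD15M_CM-only regions (750 of 3577, 21% near a gene end) and CD15M_CM-only regions (16.4%) were placed like the LM-only ones, but fewer of them lay outside genes (19.6% and 21.6%). Members within 1 kb of a circular muscle peak were near a gene end in 25.6% of cases, and those 10 kb or more away in 10.0%.

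**Figure D2:**
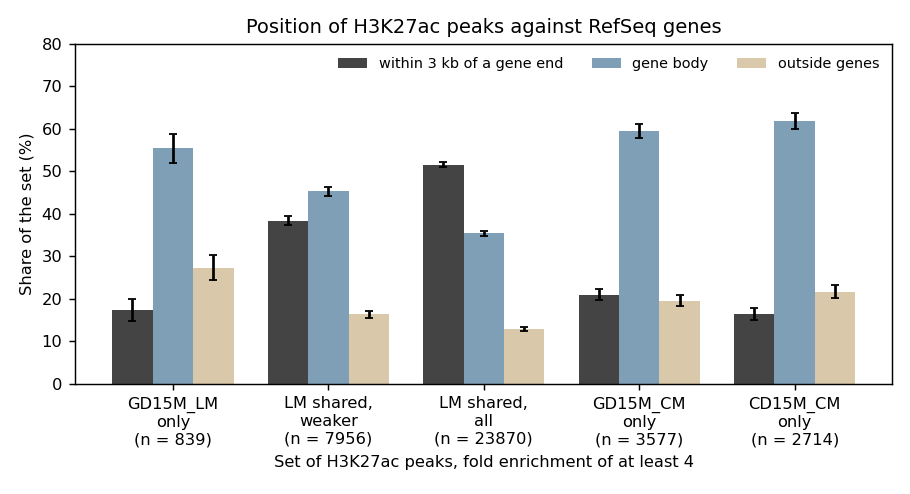
Share of each set of H3K27ac peaks (y axis, %) within 3 kb of a gene end, in a gene body or outside RefSeq genes, for LM-only regions, shared GD15M_LM peaks of the same weak strength, all shared GD15M_LM peaks, and regions found only in GD15M_CM or CD15M_CM (x axis). Whiskers are 95% Wilson intervals, and LM-only regions show the lowest gene-end share of the GD15M_LM sets (17.3%) and the highest share outside genes (27.3%).

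H3K4me3, the promoter mark, was rare at LM-only regions and most frequent there in the tissue of origin. It overlapped 126 of the 839 regions in GD15M_LM (15.0%, interval 12.8 to 17.6%), 59 in GD15M_CM (7.03%, 5.49 to 8.97%) and 83 in CD15M_CM (9.89%, 8.05 to 12.1%). Over all GD15M_LM peaks of fold enrichment at least 4 these shares were 65.1%, 56.5% and 61.0%, and over the weaker shared peaks 47.6%, 39.8% and 45.3%. Neither set was matched to the LM-only regions on length, and a longer peak has more room for an overlap. Median length was 353 bp for LM-only regions against 1067 bp for all these GD15M_LM peaks, and the part of length was not tested. The tissue in which the H3K27ac was found had the highest share in each of the tissue-only sets, since GD15M_CM-only regions overlapped H3K4me3 in 18.7% of cases in GD15M_CM and in 9.28% in GD15M_LM. Near gene ends 48.3% of LM-only regions had H3K4me3 in GD15M_LM (70 of 145), against 29.0% in GD15M_CM and 38.6% in CD15M_CM. In gene bodies and outside genes the GD15M_LM shares were 8.39% and 7.42%.

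Region by region, 706 of the 839 had H3K4me3 in none of the tissues, 58 in all 3, 49 in GD15M_LM alone, 19 in GD15M_LM and CD15M_CM, 6 in CD15M_CM alone and 1 in GD15M_CM alone. The shares without H3K4me3 and with it in all 3 tissues were 84.1% and 6.91%, against 30.7% and 56.5% of shared GD15M_LM peaks. H3K4me3 in GD15M_LM alone was not particular to LM-only regions. Its share was 5.84%, close to 5.37% of shared peaks and 4.90% of the weaker shared ones. No region had H3K4me3 in both layers of pregnant gilts without having it in CD15M_CM. That pattern was rare among shared GD15M_LM peaks too, at 0.62% of all and 0.65% of the weaker ones. Where all 3 tissues had H3K4me3, the peak ranked highest within its own list in GD15M_LM for 26 regions, in CD15M_CM for 21 and in GD15M_CM for 11. The same ranking was not made for shared peaks, so this split has no background beside it. The 49 H3K4me3 peaks present in GD15M_LM alone were weak, with a median fold enrichment of 4.61 and a range of 3.10 to 28.9, against a median of 14.2 in GD15M_LM for those found in all 3 tissues.

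**Figure D3:**
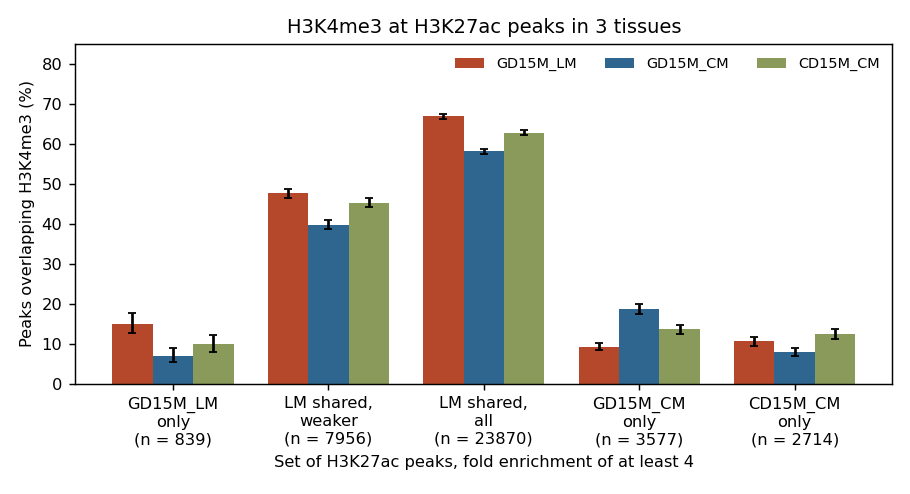
Share of each set of H3K27ac peaks (y axis, %) that overlaps an H3K4me3 peak of GD15M_LM, GD15M_CM or CD15M_CM (colours), for the same sets as in the plot of position (x axis). Whiskers are 95% Wilson intervals, and LM-only regions reached 15.0% in GD15M_LM against 66.9% for all shared GD15M_LM peaks.

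Among the 15 strongest regions with H3K4me3 in GD15M_LM alone, the highest H3K4me3 value belonged to a region in the body of MRAP2, an accessory protein of melanocortin receptors, on Sscrofa11.1 chromosome 1 from 53254783 to 53255751. Its H3K27ac fold enrichment was 5.16 and its H3K4me3 fold enrichment 28.9, and both circular muscle tissues had H3K4me3 peaks close by without touching it, at 171 bp in GD15M_CM and 100 bp in CD15M_CM. The second was a region 1464 bp from FADS3, a member of the fatty acid desaturase family, with values of 4.98 and 26.6, again with circular muscle H3K4me3 at 591 and 94 bp. Circular muscle H3K27ac was close too, at 175 bp (GD15M_CM) and 81 bp (CD15M_CM) for MRAP2 and at 788 and 687 bp for FADS3. In both cases circular muscle thus had both marks beside the region but not on it. In CELF2, which encodes an RNA-binding splicing regulator, the values were 5.12 and 11.5. There H3K27ac lay at 245 bp in GD15M_CM and 101 bp in CD15M_CM, and H3K4me3 at 4406 and 98 bp. The others reported here had H3K4me3 fold enrichments between 3.42 and 6.27. They lay in KIAA0907, in TBCK, in AGAP1 and in CFL2, the muscle cofilin that severs actin filaments, and nearest to DKK1, WT1, PTPRC, NOVA1, CCNL1, ANO6 and PCDH1. For DKK1, an inhibitor of WNT signalling, the distance was 181850 bp, and for PTPRC, the leukocyte antigen CD45, it was 493662 bp, so these names are landmarks and not assigned targets.

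The strongest LM-only region, of fold enrichment 7.04, lay in KIAA0907 on chromosome 4 from 94107039 to 94107921, and the nearest circular muscle peak was 1614 bp away. The next lay in CHST11, a chondroitin sulfotransferase, on chromosome 5 from 79794238 to 79795095, with a fold enrichment of 6.74, 21043 bp from circular muscle H3K27ac and without H3K4me3. TCF7L2, a transcription factor of the WNT pathway, followed with 6.43 at chromosome 14 from 123507854 to 123508119, where H3K4me3 had a fold enrichment of 8.41 in GD15M_LM and 7.11 in CD15M_CM and no peak in GD15M_CM. The regions nearest to DKK1 and in ADAM9, a membrane metalloprotease, had 6.32 each. LHFPL2 (6.09), PLS3 (6.07), an actin-bundling plastin, and PTP4A1 (6.05) completed the 8 regions above 6. Of these, the region nearest to PLS3 was the one with H3K4me3 in all 3 tissues, at 11.8 in GD15M_LM, 16.1 in GD15M_CM and 9.70 in CD15M_CM.

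The 12 regions that followed had fold enrichments between 5.59 and 5.92, and none overlapped H3K4me3. They lay in COL28A1, MOSPD1, RASAL2, SMOC2 and TNFSF10, or had ALOX5AP, MBL2, TANK, SLC22A3, THNSL2, NOTCH2 and SAMD5 as the nearest named gene. The region listed under NOTCH2 lay inside LOC100624559 and 166658 bp from NOTCH2, and that under MBL2 lay 117826 bp from it. COL28A1 encodes a collagen, SMOC2 a calcium-binding matrix protein and TNFSF10 the death ligand TRAIL. The region in SMOC2 had the most GD15M_LM peaks of any strength without circular muscle overlap within 50 kb, 10 with itself counted. They were among 34 GD15M_LM, 21 GD15M_CM and 34 CD15M_CM peaks, and other members had up to 52 GD15M_LM peaks within that distance.

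LM-only regions were scattered. With neighbours joined over the stitching distance customary for enhancer clusters (between the alternatives of 5 and 50 kb), the 839 regions formed 793 groups, of which 748 held 1 region, 44 held 2 and 1 held 3. Regions in groups of at least 2 were 91 (10.8%, interval 8.92 to 13.1%), against 34.5% (33.0 to 36.1%) of GD15M_CM-only and 16.2% (14.8 to 17.6%) of CD15M_CM-only regions, whose largest groups held 10 and 5. The sets differ in size, and the median gap between neighbours was 1337587 bp for LM-only regions against 132548 bp for GD15M_CM-only ones. The group of 3 lay in ANTXR2, a receptor that binds collagen and laminin, on chromosome 8 from 137751479 to 137757180, where GD15M_CM had no H3K27ac peak and CD15M_CM had 1. Pairs inside AGAP1 and nearest to CPA6, NRP1, AP1M1 and C6H1orf109 had no circular muscle H3K27ac peak within their span. The pair at NRP1, a co-receptor of semaphorins, lay over 100 kb from that gene, at 104148 and 109588 bp. A further pair at KIAA0141 and PCDH1 had 2 GD15M_CM peaks and 1 CD15M_CM peak within its span.

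The LM-only share of GD15M_LM peaks was highest on chromosome X. Of 482 GD15M_LM peaks of fold enrichment at least 4 on X, 41 were LM-only (8.51%, interval 6.33 to 11.3%), against 798 of 24227 (3.29%, 3.08 to 3.53%) on chromosomes 1 to 18, where single chromosomes ranged from 1.96% to 4.63%. The tissue-only sets of circular muscle went the other way, with 9.86% on X against 14.3% elsewhere for GD15M_CM and 4.67% against 10.0% for CD15M_CM. GD15M_LM also had a larger share of its H3K27ac peaks of that strength on X, 1.95% against 1.17% and 1.10%, while the X share of H3K4me3 peaks was close in the 3 tissues (3.29%, 3.11% and 3.13%). Among the 41 regions were 3 in ARHGAP6, a GTPase-activating protein, and 4 in MAOB. Others lay in DMD, which encodes dystrophin (4.43), in FHL1, a LIM protein of muscle (4.17), in MTM1, the phosphatase myotubularin (5.13), and in SRPK3, a muscle protein kinase (4.00). DMD, FHL1, MTM1 and SRPK3 were chosen after their values were seen. The 41 regions lay in or nearest to 33 named genes, PLS3 and MOSPD1 among them. How many of these are muscle genes was not counted, so the 4 names do not describe the set.

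**Figure D4:**
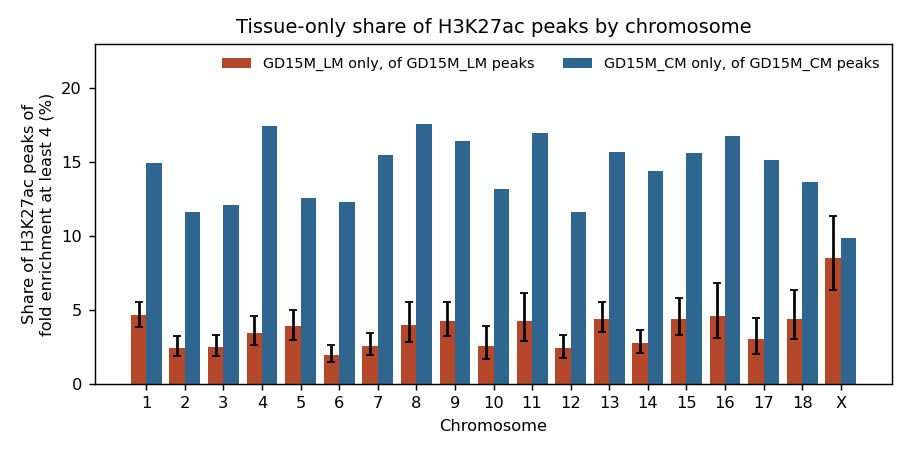
Share of H3K27ac peaks of fold enrichment at least 4 (y axis, %) that were found in 1 tissue only, by chromosome (x axis), for GD15M_LM (red, whiskers are 95% Wilson intervals) and GD15M_CM (blue). Chromosome X has the highest share in GD15M_LM (8.51%) and the lowest in GD15M_CM (9.86%).

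An LM-only region lay in the body or within 10 kb of 578 of 19484 protein-coding genes (2.97%, and 2.41% or 5.88% with 3 or 50 kb in place of 10 kb), which were 4.5% of the 12835 genes with any GD15M_LM H3K27ac peak of that strength there. Of these genes 503 had 1 region, 60 had 2, 11 had 3 and 4 had 4. Long genes offer more room, and the share of genes with a region rose from 1.34% of those under 20 kb to 14.9% of those of 300 kb or more. The genes with 4 regions were MAOB, COL5A2, FAT3 and SYT1, all with every region in the gene body and without H3K4me3.

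MAOB encodes a mitochondrial monoamine oxidase, which breaks down amine transmitters. Its 4 regions had fold enrichments of 4.85, 4.43, 4.14 and 4.14, and the gene with its flanks held 9 H3K27ac peaks in GD15M_LM against 3 in GD15M_CM and 4 in CD15M_CM. Such counts per gene, here and in the paragraphs below, include the LM-only regions for which the genes were named. A higher count in GD15M_LM therefore follows in part from the choice and is description only. The neighbouring MAOA, its paralog, chosen after its values were seen, had 1 region of 4.14 with H3K4me3 of 4.17 in GD15M_LM alone. SLC22A3, an organic cation transporter that takes up monoamines, had 3 regions, of 5.67, 4.59 and 4.30, among 8 GD15M_LM, 2 GD15M_CM and 7 CD15M_CM peaks. At the gene ends of SLC22A3 the highest H3K4me3 peak stood at the 85.2 percentile of the GD15M_LM list, 63.2 in GD15M_CM and 70.6 in CD15M_CM, whereas at MAOB it was 66.7, 75.9 and 65.6. A percentile here is the rank of a peak by fold enrichment in its own list, with 0 for no peak, and it is used because fold enrichments of different lists are not on a common scale.

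COL5A2, a fibrillar collagen chain, had regions of 4.72, 4.40, 4.14 and 4.14, and its gene-end H3K4me3 was alike in the 3 tissues (93.7, 94.5 and 94.6). FAT3, a large cadherin, held 11 GD15M_LM, 2 GD15M_CM and 7 CD15M_CM H3K27ac peaks. SYT1, a calcium sensor of vesicle release, held 15, 8 and 20, so CD15M_CM had more peaks there than GD15M_LM in spite of the 4 LM-only regions. Genes with 3 regions besides SLC22A3, ANTXR2 and ARHGAP6 were LIX1, GRK5, AGAP1, ETV6, PLXNA4, PGM5, PRKCB and BNC2. GRK5, a kinase that desensitises G protein-coupled receptors, had 70, 72 and 67 H3K27ac peaks in GD15M_LM, GD15M_CM and CD15M_CM, so its 3 regions were a small part of a gene marked in every tissue. PRKCB, a protein kinase C isoform, had 6, 0 and 4, PLXNA4, a semaphorin co-receptor, 24, 3 and 19, and LIX1 3, 0 and 1. PGM5, a protein of muscle adhesion plaques, and BNC2, a zinc finger protein, had gene-end H3K4me3 at the 94.3 and 93.8 percentile in GD15M_LM, 74.7 and 80.6 in GD15M_CM and 76.2 and 90.5 in CD15M_CM.

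The 16 lists of genes by role held 323 genes that could be placed, and 46 of them had an LM-only region. Among the 267 listed genes with any GD15M_LM H3K27ac peak of that strength the share was 17.2% (13.2 to 22.2%). Listed genes were longer than the rest, and by length class the share was 6.33% against 2.33% of all genes with such a peak under 20 kb, 7.89% against 3.25% between 20 and 100 kb, 31.9% against 10.6% between 100 and 300 kb and 30.2% against 20.7% for longer genes. The lists were chosen for this tissue with earlier results known. The 323 genes also included 55 (17%) with a GD15M_CM-only and 85 (26.3%) with a CD15M_CM-only region, against 11.2% and 9.22% of all 19484 genes, and 46 (14.2%) with an LM-only region against 2.97%. Counts of single lists are small. Those out of all placed genes of a list are read beside 2.97% of all 19484 genes. Those out of listed genes with a GD15M_LM peak are read beside the share of all genes with such a peak at the same lengths.

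Contraction lists held 20 of these genes. Of 20 genes of the smooth muscle contractile apparatus, 6 had a region. ACTA2, smooth muscle actin, had 2 regions outside the gene, of 4.52 at 5752 bp and 4.26 at 1615 bp, and the nearer had H3K4me3 of 4.77 in GD15M_LM alone. MYH11, the smooth muscle myosin heavy chain, had 2 in its body, of 4.14 and 4.08, among 47 GD15M_LM, 31 GD15M_CM and 60 CD15M_CM peaks. CALD1, the actin-binding caldesmon, had 1 region (4.26), as had SYNPO2, an actin-bundling protein (4.00), TPM1, a tropomyosin (4.03 at 9176 bp), and ACTN1, alpha-actinin (4.24 at 9296 bp). Of 12 muscle regulators, MYOCD, the coactivator that drives smooth muscle genes (4.24), and TEAD1, a factor at muscle promoters (4.13), had a region.

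Among receptors, 2 of 14 adrenergic and cholinergic receptor genes had LM-only regions. CHRM3, the muscarinic receptor that couples acetylcholine to calcium release, had 2, of 4.95 and 4.23, and ADRA1B, an alpha-1 adrenergic receptor, had 1 of 4.40. Over the contraction genes, the distance to the nearest circular muscle H3K27ac peak ran from 8 bp (MYH11) to 94779 bp (ARHGAP42). It was 162 bp for the nearer ACTA2 region, 322 bp for MYOCD, 621 and 458 bp for CHRM3 and 65079 bp for ADRA1B. PTGER3, a prostaglandin E receptor, had 2, of 4.43 and 4.01, and was the single one of 19 other contraction receptor genes. Of 26 calcium and phosphoinositide genes, ITPR1, the IP3 receptor of the calcium store (4.14), and TRPC6, a receptor-operated cation channel (4.44), had a region, and at TRPC6 it carried H3K4me3 of 5.56 in GD15M_LM alone. These were 8.0% (2.22 to 25%) of the 25 genes of that list with a GD15M_LM peak, and all genes with such a peak, taken at the same lengths, gave 13.1%. Of 15 potassium channel genes, those with a region were both parts of the large-conductance calcium-activated channel, the pore subunit KCNMA1 (4.65) and the muscle subunit KCNMB1 (4.51). ARHGAP42, a GTPase-activating protein that restrains smooth muscle contraction (4.14), was the 1 of 12 genes of small GTPase signalling and myosin phosphatase. Of 13 genes of cGMP and cAMP relaxation, 4 phosphodiesterase genes had regions, PDE4B (4.30 and 4.14), PDE5A (4.29), PDE1A (4.43) and PDE1C (4.34 and 4.01), and the region in PDE1A overlapped H3K4me3 of 20.7 in GD15M_LM, 8.01 in GD15M_CM and 14.7 in CD15M_CM.

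Gene-end H3K4me3 of these 20 contraction genes was a measure apart from the choice of regions. Of the 15 with a peak in either layer of pregnant gilts, 11 ranked higher in GD15M_LM than in GD15M_CM (73.3%, interval 48.0 to 89.1%). The 95 contraction genes without an LM-only region gave 66.3% (56.3 to 75%), and the intervals overlap. The widest differences were at PTGER3 (98.1 in GD15M_LM, 68.0 in GD15M_CM and 89.6 in CD15M_CM), ARHGAP42 (98.8, 72.6 and 84.6), KCNMB1 (93.5, 69.0 and 80.6), TRPC6 (98.9, 75.1 and 87.1), KCNMA1 (97.2, 73.5 and 71.0) and SYNPO2 (97.5, 74.3 and 91.5). TPM1 went the other way (77.2, 97.0 and 98.5). CALD1, ADRA1B, PDE4B, PDE1A and PDE1C had no H3K4me3 peak within 3 kb of the ends of the gene model used.

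**Figure D5:**
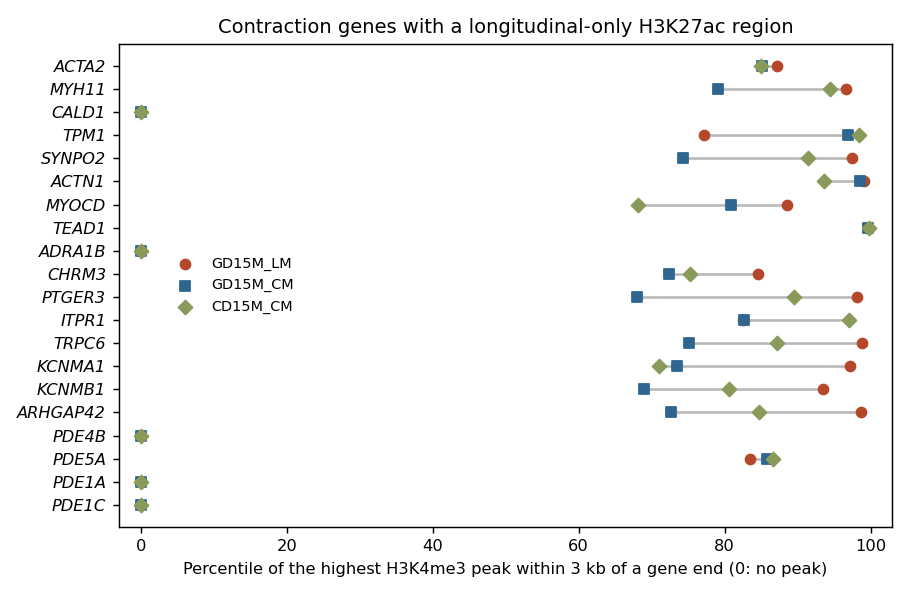
Percentile of the highest H3K4me3 peak within 3 kb of either gene end (x axis, rank within each list) for the 20 contraction genes with an LM-only H3K27ac region (y axis), in GD15M_LM (circles), GD15M_CM (squares) and CD15M_CM (diamonds), with markers hidden behind each other where values are equal. PTGER3, ARHGAP42, KCNMB1, TRPC6, KCNMA1 and SYNPO2 rank highest in GD15M_LM, TPM1 ranks lowest there, and the 5 genes at 0 have no peak.

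Signalling and patterning lists were touched in a similar way. Of 32 patterning factors of the Mullerian duct and limb, HOXA13 (4.01), MEIS1 (4.72) and MEIS2 (5.16) had a region, and both MEIS proteins are homeodomain partners of HOX proteins. At MEIS2 the gene-end H3K4me3 stood at 99.4 in GD15M_LM, 71.5 in GD15M_CM and 78.1 in CD15M_CM, whereas at HOXA13 the values were 97.7, 97.6 and 99.1. Of 32 WNT pathway genes, 5 had a region: the receptor FZD3 (4.78), the co-receptors ROR1 (4.17) and LRP6 (5.30), the antagonist DKK2 (4.87) and TCF7L2 (6.43 and 4.38). Gene-end H3K4me3 was higher in GD15M_LM at TCF7L2 (97.2 against 76.9 in GD15M_CM and 92.6 in CD15M_CM) and lower at LRP6 (93.7 against 96.9 and 99.7).

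Of 27 TGF-beta and BMP genes, the ligands TGFB2 (4.65), BMP5 (4.29) and BMP6 (4.26), the receptor TGFBR2 (4.29), the inhibitory SMAD6 (4.75) and the latency protein LTBP1 (4.27) had a region. BMP5 and CRABP1, a retinoic acid binding protein and the 1 of 15 retinoic acid genes with a region (4.55), had no other H3K27ac peak in GD15M_LM and none in circular muscle. Of 28 extracellular matrix and integrin genes, COL1A1 (4.29), COL4A1 (4.07), COL4A2 (4.29), COL5A2, ITGA1 (4.87) and ITGA9 (4.13) had regions. Of 29 guidance and neurotrophic genes, the neurotrophin receptors NTRK3 (4.17) and NGFR (4.11), the semaphorin SEMA3C (5.16) and the semaphorin receptors NRP1 (4.58) and NRP2 (4.39 and 4.21) had regions. NTRK3 held 24 H3K27ac peaks in GD15M_LM, 5 in GD15M_CM and 16 in CD15M_CM, and its gene-end H3K4me3 stood at 87.5, 64.2 and 66.7. None of the 14 steroid receptor and partner genes and none of the 14 interferon and antigen presentation genes had an LM-only region. At the lengths of these genes, all genes with a GD15M_LM peak gave 11.3% and 3.05%, both within the intervals for 0 of 13 (up to 22.8%) and 0 of 14 (up to 21.5%) genes with such a peak.

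Over all genes, those with an LM-only region ranked higher in gene-end H3K4me3 in longitudinal than in circular muscle of pregnant gilts more often than the background. Of 492 genes with a region and an H3K4me3 peak in either layer, 297 ranked higher in GD15M_LM (60.4%, interval 56.0 to 64.6%), against 47.9% of all 14247 protein-coding genes with such a peak. With genes whose regions all lay away from gene ends the share was 59.0% (53.8 to 64.0%). It was 40.5% (38.3 to 42.6%) for genes with a GD15M_CM-only region and 49.7% for those with a CD15M_CM-only region. The shift was small, with a median difference in percentile of 1.99 for genes with an LM-only region against -0.47 for all genes. For genes of 100 kb or more the share was 60.4% (53.9 to 66.6%) against 54.3% (52.2 to 56.3%) of all genes of that length, and these intervals overlap, whereas for shorter genes it was 60.3% (54.3 to 66.0%) against 46.7%. Against CD15M_CM, 46.6% (42.2 to 51.0%) of genes with a region ranked higher in GD15M_LM, compared with 39.7% of all genes. Genes are not independent replicates, and with both gilts pooled these shares describe 1 list per tissue.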

How the data were processed

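CUT&Tag libraries of 2 marks and IgG in 3 tissues (18 libraries, 2 gilts per group) were mapped by the authors to Sus scrofa 11.1 with BWA 0.7.17-r1188, filtered with SAMtools 1.9 and Picard 2.8.3, pooled, and called with MACS2 2.2.6. The deposited fold enrichment is that of the peak caller and was read here as a ratio over IgG. The paper names IgG as control for signal normalization, and the control used in peak calling is not stated there. The deposited −log10 p belongs to single peaks, and the length in bp is also from the authors' lists. How mark and IgG were scaled is not given in the sources used here. The −log10 p column had lost its name and was identified by its values.

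Overlap needed 1 base. Positions used 28073 RefSeq genes without strand, so 3 kb around either gene end stands for a promoter and includes 3′ ends. Neighbouring regions were joined into groups over the stitching distance customary for super-enhancers. Python 3.11.15, pandas 2.3.3, NumPy 2.4.6, SciPy 1.17.1 and Matplotlib 3.10.9 were used, and overlaps were tested on simulated data. The merged lists hold no value per gilt, so no test across samples was made here, and the authors' own DiffBind comparison was not used.

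Members, the 24 gene lists and the comparisons were chosen with earlier results of these data known. Genes named were those at the 20 strongest regions, the 15 with most regions, those at the largest groups, every listed gene with a region, and those at the 15 strongest regions with H3K4me3 in GD15M_LM alone. The comparison with weaker shared peaks, gene-end H3K4me3, distance classes and chromosome X were added after seeing the data. Sequence content of the regions was not analysed here. Results at 1 gene that the naming rule would give are not reported here.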

Additional observations from a re-analysis of the deposited data

Results flagged for a closer look

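Outside the chromosomes used above, 315 GD15M_LM H3K27ac peaks of fold enrichment at least 4 lay on chromosome Y or on unplaced scaffolds, and 5 of them overlapped no circular muscle H3K27ac peak. All 5 were on unplaced scaffolds, and the 5 peaks on chromosome Y all had a circular muscle peak. The fold enrichment of the 5 regions ranged from 4.02 to 4.87. They were picked out because they belong to data that the comparisons left aside.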

How the results depend on the processing

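No paired analysis was possible because the merged peak lists used here hold no value per gilt, and for the same reason no replicate was left out. Fold enrichment in steps, the depth, which the lists do not give, and the shorter GD15M_LM list limit every count. Of 101 values under alternatives, 35 stayed within the interval or 1.5 times the count and 66 did not, and the cause was not tested.

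The number of LM-only regions became 3818 with a fold enrichment of at least 3, 87 with at least 5, 20 with a −log10 p of at least 10 as well, 526 with no circular muscle peak within 1 kb, 1488 when a circular muscle peak had to cover 50% of the region, and 1798 with circular muscle lists cut to the length of the GD15M_LM list. In that order, the share near gene ends moved to 21.7%, 10.3% and 20% under the first 3 and 12.4% under the fourth, and it was 13.7% with peaks less than 1 kb apart joined, 7.75% with a window of 1 kb and 12.8% with protein-coding genes only. The share in groups moved to 23.4%, 2.30%, 0%, 6.84%, 15.3% and 13.4%, to 3.38% with peaks joined, and to 7.75% and 20.1% with 5 and 50 kb in place of the main distance. H3K4me3 overlap in GD15M_LM moved to 20.7% (at least 5), 30%, 10.1%, 20.8% and 19.2%, to 11.3% with peaks joined, 12.6% with 50% of the region covered, 19.1% within 1 kb and 9.30% with H3K4me3 of at least 5. In GD15M_CM it moved to 15%, 4.18%, 11.0% and 9.84%, then 4.35%, 9.42% and 5.01%, and in CD15M_CM to 20%, 6.65%, 14.8% and 13.5%, then 7.09%, 13.0% and 5.72%. Its GD15M_LM share was the highest of the 3 tissues under each of these settings. Listed genes with a region numbered 47 with the markers and became 111, 4, 1, 29 and 82 under a fold enrichment of 3, of 5, the −log10 p minimum, the 1 kb distance and the cut lists.

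For gene-end H3K4me3, an alternative set added after seeing the data, the share higher in GD15M_LM than in GD15M_CM moved to 55.3% (at least 3), 69.8% of 43 genes (at least 5) and 85.7% of 14 genes (−log10 p), and stayed above that of all genes each time. The LM-only share on chromosome X moved to 14.9%, 2.26%, 1.80%, 5.60%, 17% and 16.4% over the first 6 settings, and was above that on chromosomes 1 to 18 under each (8.25%, 0.650%, 0.118%, 2.06%, 5.80% and 7.10%).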
